A study of Danio rerio with 18 samples.

Results

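The cytosolic ribosomal protein genes code for the proteins that are built, with ribosomal RNA, into the large and small subunits of the ribosome. They were taken as every gene on the array whose symbol begins with rpl or rps and a number, or with rplp or rpsa, with the rps6k kinases left out. The rule gave 83 of the 13576 genes that could be named on the array, of which 44 belong to the large subunit, 35 to the small subunit and 4 to the P stalk of the large subunit (rplp0, rplp1, rplp2 and rplp2b). They were covered by 177 probes, and 25 genes had 1 probe. For the other 58 genes the brightest probe stood for the gene. All 83 of these probes were well above background on all 18 arrays, and none was saturated.

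The ribosome reads messenger RNA and joins amino acids into protein. In vertebrates most ribosomal protein messages begin with a pyrimidine tract and are translated under the control of mTORC1, while Myc raises the transcription of the genes themselves. The liver makes most of the plasma proteins, and in egg-laying female fish it also makes vitellogenin, the yolk precursor, so ribosomes are abundant there. Some members have a close paralog, a copy with its own gene, and several have roles off the ribosome: rpl5 and rpl11 hold the 5S RNA and bind Mdm2, and rps27a is made as a fusion with ubiquitin.

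RNA was measured in the livers of untreated adult zebrafish of 3 laboratory strains, AB, TU (Tuebingen) and WIK, with 3 males and 3 females of each, on one-colour Agilent arrays. All 6 groups were aged 12 to 18 months by their labels, which name no engineered allele. The study's methods give a narrower age range. The strains are kept as breeding populations and are not clones. By the study's account the hour of dissection differed, early in the day for AB and later for the other strains, so strain AB and time of day cannot be told apart. The fish of a group were separate animals whose kinship is not given in the sources used here, and the p-values measure the spread between them. That spread includes differences between slides and scan days, for which the main fits had no term.

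The 14 hepatocyte markers measured were well above background on all 18 arrays. Several fish also carried signal of other tissues. Relative to all fish, the median of 16 ovary markers was raised by 3.34 in WIK female 1, 1.48 in WIK female 2 and 0.81 in TU female 2 on the log2 scale, and the median of 8 erythrocyte markers by 3.07 in TU female 3. Intestine markers were raised by 4.57 in TU male 1 and 3.37 in TU male 3. All fish numbered 1 were scanned on the same first day, and the male and the female of a strain and number shared a slide. In whole liver, fewer cells of a type and less RNA per cell cannot be told apart. Their part in the values was not tested.

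The spread of the genes over the 18 fish was taken on their brightest probes after quantile normalization, which gives every array the same set of values. It depended on the processing. With the scanner's processed signal scaled to each array's 75th percentile, the genes' median deviation ran from -1.29 (TU male 1) to 1.59 (TU female 2). All probes were at -0.44 and 0.38 in these fish. The values that follow are from quantile normalization. The difference between the highest and the lowest fish, on the log2 scale, was 0.98 for the median gene and ran from 0.36 to 3.62. It was under 1 (2-fold) for 43 of 83 genes and at least 2 (4-fold) for 9. The SD between fish of a group had a median of 0.26 over the genes, against 0.12 for the SD of the 6 group means, so most of the spread lay within the groups. The same within-group SD was 0.20 for the median of all 43603 probes and 0.54 for the 275 other probes with a mean log2 signal of at least 15. The genes moved in part together: Pearson's r of a gene with the median of the others ran from -0.03 to 0.86 over the 18 fish, with a median of 0.46, and a median of 0.48 once group means were taken out. These correlations share arrays and scaling and are a description.

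**Figure D1:**
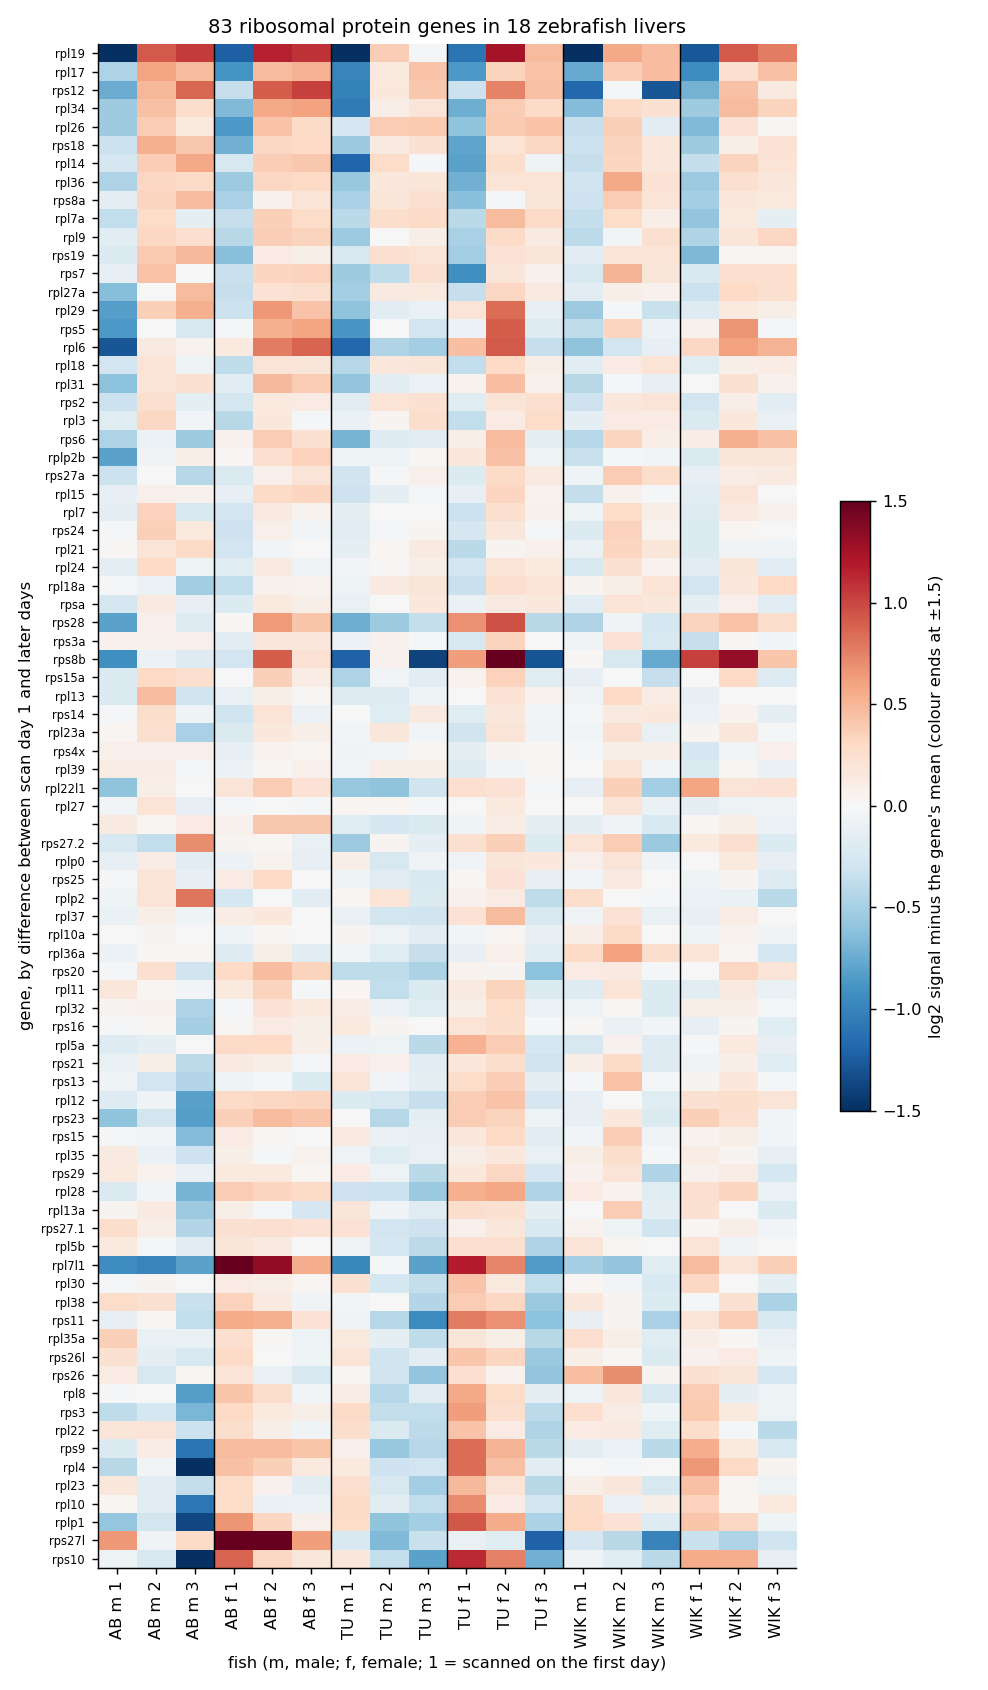
Log2 signal of each of the 83 ribosomal protein genes (rows) in each of the 18 fish (columns), as the difference from the gene's own mean, with colours ending at 1.5 in either direction. 1 row is not labelled. Rows are ordered by the difference between the first scan day and the later days, so by that order the fish numbered 1 stand out toward the top and bottom of the map. They were lowest in all 6 groups for 20 genes and highest in all 6 for 4.

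Males and females were compared within each strain. In AB, 1 of the 83 genes was called, rpl7l1, lower in males. A call needed at least a 2-fold change and an adjusted p of at most 0.05 (limma, Benjamini-Hochberg over all probes), and 2.08% of all probes met it, while 1.18% of all probes met it with males lower. No ribosomal protein gene was called in TU, where 0% of all probes were, or in WIK, where 1.39% were. Of the 275 other probes with a mean log2 signal of at least 15, 14.2% were called in AB, 0% in TU and 17.5% in WIK, and their median difference (male minus female) was 0.68, 0.36 and 0.47. At an unadjusted p under 0.05, 13 genes passed in AB (17.6% of all probes), 4 in TU (4.13%) and 6 in WIK (15%), and all of these but rpl36a in WIK were lower in males, a direction in which 8.94%, 2.08% and 5.46% of all probes passed. Males and females did not overlap for 19 of 83 genes in AB, 6 in TU and 9 in WIK, while 24.3%, 8.38% and 20.6% of all probes did not overlap.

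The gene called in AB, rpl7l1, codes for a paralog of the 60S protein Rpl7 that in human cells takes part in early assembly of the large subunit. Its log2 signal was 9.34, 9.28 and 9.47 in the 3 AB males and 12.09, 11.60 and 10.81 in the 3 AB females. The groups did not overlap, and the difference was -2.14 (male minus female, SE 0.33, adjusted p = 0.039, limma with Benjamini-Hochberg). Within the 3 slides, each of which held 1 AB male and 1 AB female, the male was lower by 2.75, 2.33 and 1.35. With the replicate number as a fixed block the adjusted p was 0.0983, with the slide as a random block it was 0.0266, and it was 0.0604 to 0.159 when any 1 AB fish other than female 3 was left out. In TU the males were at 9.31, 10.24 and 9.47 and the females at 11.45, 11 and 9.42. There TU female 3, which also had raised erythrocyte markers, lay among the males. In the study's principal component plot the sexes separated but for 1 female. The study's text does not say which fish that was. In WIK the males were at 9.77, 9.68 and 10.09, and the females, at 10.74, 10.46 and 10.63, were all above them (difference -0.76, SE 0.14, adjusted p = 0.0627). The WIK adjusted p was 0.0863 with the replicate block and 0.0323 with the slide as a random block, where the change stayed under 2-fold. With median scaling of the arrays the WIK difference turned to 0.32 (adjusted p = 0.43) and the AB difference was -1.82 (adjusted p = 0.19). With the 75th percentile scaling the WIK and AB differences were -0.95 and -2.27, and in the deposited log2 table -0.83 and -2.13. The main copy, rpl7, differed by 0.02, -0.04 and 0.10 between the sexes in AB, TU and WIK.

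Next to it stood rps23, a small subunit protein of the decoding centre. It measured 16.01, 16.34 and 15.79 in AB males against 16.97, 17.08 and 17.03 in AB females, with no overlap. The difference of -0.98 (SE 0.15, adjusted p = 0.0389, limma with Benjamini-Hochberg) passed the adjusted threshold, as did 2.83% of all probes. On this probe with quantile normalization it fell just short of 2-fold. Within the slides it was -0.96, -0.74 and -1.25, and the adjusted p was 0.0856 with the replicate block and 0.0245 with the slide as a random block. The adjusted p was 0.108 to 0.157 without AB male 1 or any AB female, and under 0.05 without AB male 2 or AB male 3. It was 0.225 with median scaling, 0.0808 with the 75th percentile scaling and 0.0647 in the deposited log2 table. In TU and WIK the rps23 difference was -0.40 (adjusted p = 0.935) and -0.24 (adjusted p = 0.546). Next by p in AB was rps3, a small subunit protein at the messenger RNA entry channel, with a difference of -0.62 (SE 0.14, adjusted p = 0.088).

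For rpl6, a large subunit protein, every male was below every female of its strain on the main probe. Its signal was 13.54, 14.96 and 14.88 in AB males and 14.97, 15.59 and 15.70 in AB females. In TU it was 13.65, 14.38 and 14.31 in males and 15.28, 15.75 and 14.48 in females. In WIK it was 14.22, 14.55 and 14.70 in males and 15.14, 15.43 and 15.33 in females. The groups did not overlap in any strain, although the highest AB male and the lowest AB female were nearly level. The differences were -0.96 (SE 0.44, adjusted p = 0.35), -1.06 (SE 0.38, adjusted p = 0.935) and -0.81 (SE 0.15, adjusted p = 0.0637, limma with Benjamini-Hochberg), none of which passed. On the other rpl6 probe TU male 2 (14.39) lay above TU female 3 (14.31), and the sexes did not overlap in AB or WIK. In WIK, males were also below females without passing for the small subunit genes rps28 at -0.59 (SE 0.12, adjusted p = 0.0835) and rps8b, a paralog of rps8a, at -1.25 (SE 0.30, adjusted p = 0.124). The WIK differences of rpl6 and rps28 moved in both directions with the scaling. They were -0.25 and -0.11 with median scaling, -1.47 and -1.25 with the 75th percentile scaling, and -0.73 and -0.46 in the deposited log2 table. With the slide as a random block their adjusted p was 0.0293 and 0.0427. In TU the smallest p belonged to rpl22l1, the paralog of the 60S protein Rpl22, with males at 14.88, 14.84 and 15.15 and females at 15.70, 15.67 and 15.43. That difference of -0.64 (SE 0.12) had an adjusted p of 0.935, since no probe passed in TU, and it was followed by rpl6 and by rpl13 (-0.24, SE 0.09). Without TU female 3 the adjusted p of rpl22l1 was 0.0941.

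**Figure D2:**
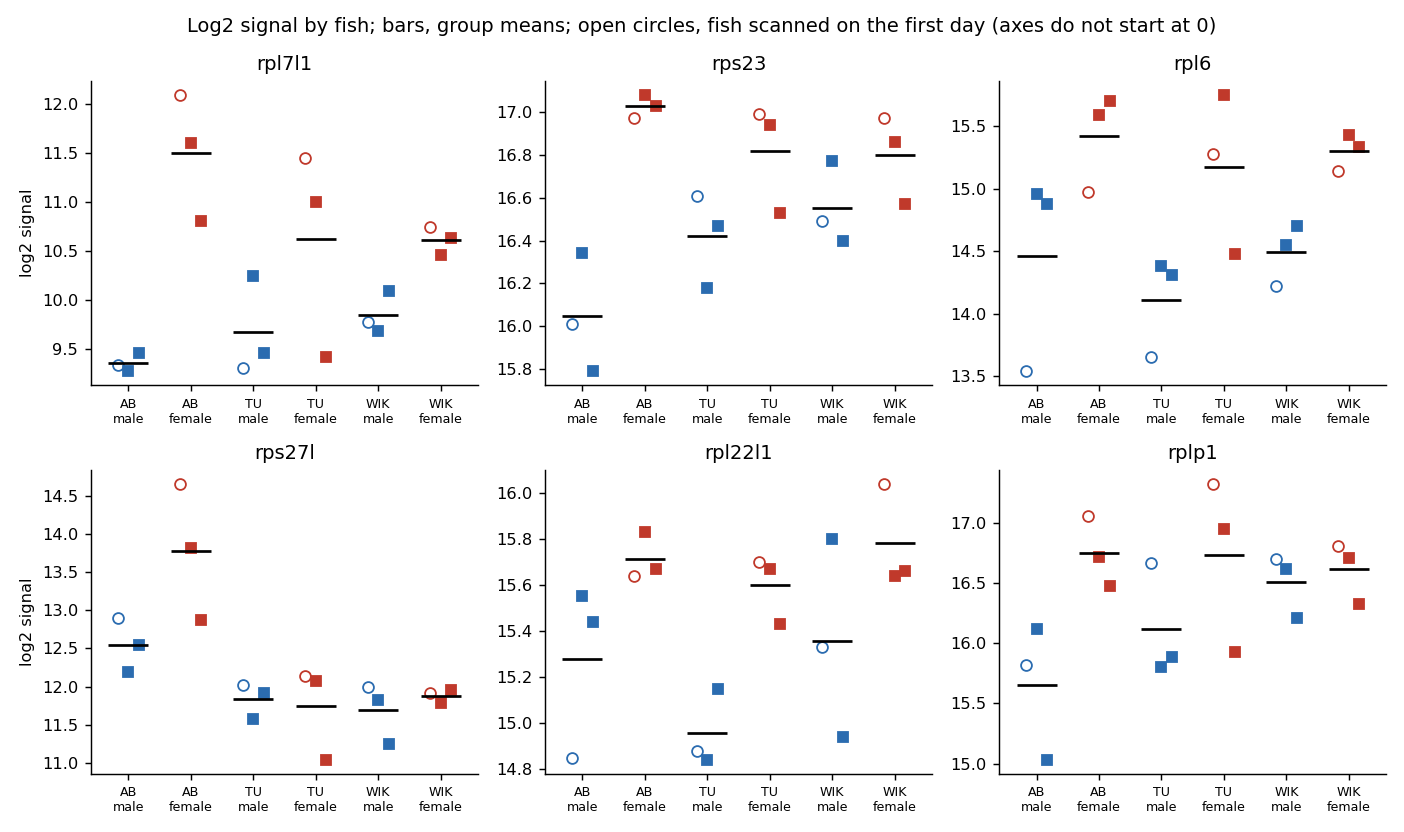
Log2 signal of rpl7l1, rps23, rpl6, rps27l, rpl22l1 and rplp1 in each fish (males blue, females red, open circles for fish scanned on the first day), with bars at the group means and axes that do not start at 0. For rpl7l1 the 3 AB males lie between 9.28 and 9.47 and the 3 AB females between 10.81 and 12.09.

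Whether the family as a whole was lower in males depended on how the arrays were processed. The 4 settings, called scalings here, also differed in the signal used. Quantile normalization and median scaling started from the same background-corrected median spot signal and differ in scaling alone. The 75th percentile setting used the scanner's processed signal without that correction, and the deposited table holds values per accession. With quantile normalization, which gives every array the same set of values and so cannot show at full size a shift shared by the brightest probes, 60 of 83 genes were lower in males in AB, 67 in TU and 42 in WIK. The median difference of the 83 genes was -0.12, -0.16 and -0.01, against -0.0015, -0.0095 and 0.012 for all probes. Leaving out single fish moved the AB median between -0.06 (without AB female 2) and -0.23 (without AB female 1). It turned the WIK median above 0 without WIK male 1, WIK male 3 or WIK female 2 (0.04, 0.04 and 0.06). Without TU female 3 the TU median was -0.26, and without the 3 females with raised ovary markers the TU and WIK medians were -0.07 and 0.03, an alternative added after seeing the data. It left WIK female 3 as the only WIK female, and TU female 1 and TU female 3, so these medians cannot show the part of ovary signal. In the single slides 50, 57 and 67 genes were lower in the AB male, 59, 77 and 47 in the TU male and 43, 38 and 51 in the WIK male. With the scanner's processed signal scaled to each array's 75th percentile, all 83 genes were lower in males in all 3 strains, and their median was -1.11, -1.51 and -1.22. That scaling also moved the median of all probes to -0.09, -0.37 and -0.30, and relative to it the genes lay at -1.02, -1.14 and -0.92. With median scaling the values relative to all probes were -0.68 in AB and -0.55 in TU but 0.02 in WIK, and in the deposited log2 table they were -0.24, -0.38 and -0.22. Relative to all probes, the direction of the median was therefore the same under all 4 scalings in AB and TU. In WIK it turned under median scaling, and the quantile median turned above 0 without single fish. With the 75th percentile, the other probes with a mean log2 signal of at least 15 had medians of -0.02, -0.70 and -0.55. With median scaling these were 0.33, 0.22 and 0.70. The median of the 83 genes lay below theirs in all 3 strains under all 4 scalings, which was not tested. Averaging all probes of a gene gave the 83 genes medians of -0.32, -0.26 and -0.13.

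The values of single fish under the 75th percentile scaling were taken relative to all probes, as the median over the 83 genes of the difference from each gene's mean over 18 fish, less the same median over all probes. This was -0.68, -0.09 and -0.57 in AB males and 0.25, 0.69 and 0.96 in AB females. It was -0.84, -0.28 and -0.63 in TU males and 0.59, 1.21 and -0.56 in TU females. It was -0.24, -0.15 and -0.37 in WIK males and 0.71, 0.78 and 0.36 in WIK females. The sexes did not overlap in AB or WIK, and TU female 3 lay among the TU males. Under this scaling 47 genes in AB, 11 in TU and 81 in WIK had an unadjusted p under 0.05, where 18.5%, 7.4% and 26.2% of all probes did. The genes share the same fish and the same factor per array, so these are not counts of independent genes. After adjustment 1, 0 and 0 genes passed, while 1.96%, 0% and 0.702% of all probes did. The smallest adjusted p was 0.0383 in AB (rpl7l1), 0.429 in TU and 0.0918 in WIK (limma with Benjamini-Hochberg). In the table of log2 values that was deposited, the adjusted threshold was passed in AB by 3 of 83 genes and by 2.58% of all its rows. The 3 genes were all lower in males and none of them by 2-fold. They were rpl10a (-0.46, adjusted p = 0.0351), rpsa (-0.55, adjusted p = 0.0362) and rpl5a (-0.61, adjusted p = 0.0385). In WIK 2 of 83 passed there, rpl12 (-0.41, adjusted p = 0.0454) and rps20 (-0.31, adjusted p = 0.0479), while 1.44% of all rows did.

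**Figure D3:**
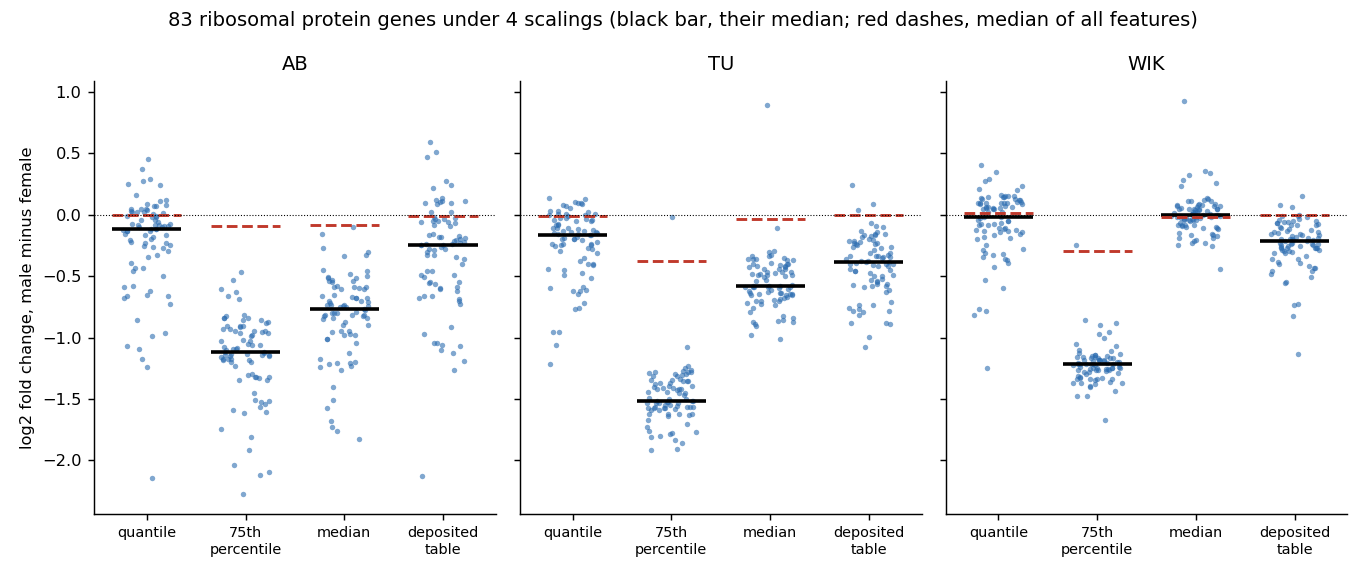
Sex difference (log2, male minus female) of each of the 83 genes, 1 point per gene, in the 3 strains under 4 scalings of the same arrays, with black bars for the median of the genes and red dashes for the median of all probes or table rows. The 75th percentile setting and the deposited table also differ from the others in the signal or values used. The genes lie below 0 as a group in AB and TU under all 4 scalings, and in WIK they lie around 0 with quantile normalization and median scaling and at a median of -1.22 with the 75th percentile.

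Strains were compared within males and within females, each with 1 F test that covered the 3 pairs of strains. No ribosomal protein gene was called in males, where 3.66% of all probes were, or in females, where 4.73% were. At an unadjusted p under 0.05 there were 5 genes in males, among them rpl36a, rps20, rps26 and rps27l, against 22.4% of all probes, and 1 in females (rps27l), against 20.5%. The lowest adjusted p belonged to rps27l, the paralog of the zinc finger protein Rps27, which in mammals is induced by p53. Its signal was 14.66, 13.81 and 12.87 in AB females, 12.14, 12.07 and 11.04 in TU females, and 11.91, 11.79 and 11.95 in WIK females. Every AB female was above every other female, by 2.03 (SE 0.46) over TU and 1.90 (SE 0.46) over WIK, with an adjusted p of 0.0544 for the F test. AB had the highest mean in males too, with 12.90, 12.19 and 12.54 in AB, 12.02, 11.58 and 11.91 in TU, and 12.00, 11.83 and 11.25 in WIK (adjusted p = 0.148). It passed in females with scan day as a fixed block (adjusted p = 0.0161), the slide as a random block (0.0306) or the replicate block (0.034). It did not pass with the 75th percentile scaling (0.0899), with median scaling (0.0877) or in the deposited log2 table (0.0809). The adjusted p fell to 0.0056 when all 18 arrays shared 1 estimate of the spread, and it rose to 0.138 without AB female 1 and 0.182 without AB female 2. The standard copies rps27.1 and rps27.2 differed among female strains by at most 0.22 and 0.15, with adjusted p of 0.44 and 0.899.

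In males the lowest adjusted p belonged to rpl36a, a large subunit protein near the exit site of tRNA, with 17.21, 17.33 and 17.33 in AB, 17.26, 17.12 and 16.95 in TU and 17.59, 17.90 and 17.56 in WIK. On this main probe WIK males were above all others, by 0.58 (SE 0.12) over TU, and the F test gave an adjusted p of 0.0579. Over the alternatives other than leaving out single fish, TU minus WIK ran from -1.07 to -0.30. On the other rpl36a probe the male strains overlapped, at 14.99, 15.59 and 15.42 in AB, 15.03, 15.42 and 15.10 in TU and 15.35, 15.91 and 15.36 in WIK. The small subunit gene rps20 was lowest in TU males, 0.50 (SE 0.13) under WIK, with an adjusted p of 0.111, and TU females also had the lowest mean (adjusted p = 0.268). Over the family, the median strain differences were 0.09 (AB minus TU), -0.05 (AB minus WIK) and -0.12 (TU minus WIK) in males and 0.03, 0.07 and 0.04 in females. No test was made of these medians. Relative to all probes, only AB minus WIK in females kept its sign under all 4 scalings (0.08, 0.19, 0.61 and 0.13), and the other 5 medians turned under 1 or more.

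The sex difference was then compared between strains. No gene passed in AB against TU (0.392% of all probes passed), AB against WIK (0.486%) or TU against WIK (0.078%), and 2, 2 and 1 genes had an unadjusted p under 0.05, as did 10.2%, 9.86% and 6.61% of all probes. The closest was rps23, whose sex difference was larger in AB than in WIK by -0.74 (adjusted p = 0.258). For rpl7l1 the same contrast was -1.38 (adjusted p = 0.478), and for rps27l the sex difference in AB less that in TU was -1.33 (SE 0.55, adjusted p = 0.418). A difference between the strains in the sex difference of rpl7l1 was thus not shown.

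By role, the 4 proteins of the P stalk, which draws elongation factors to the ribosome, gave different values. The base of the stalk, rplp0, measured between 17.69 and 18.13 over all 18 fish on its brightest probe, with sex differences of -0.01, -0.16 and 0.06. Another rplp0 probe measured 14.34, 14.97 and 13.08 in AB males and 16.16, 15.84 and 15.60 in AB females. A further rplp0 probe overlapped, at 16.65, 17.11 and 17.65 in AB males and 16.64, 17.36 and 17.41 in AB females. The remaining rplp0 probe did not overlap, at 16.10, 16.49 and 16.05 in AB males and 17.04, 16.99 and 16.99 in AB females. The arm protein rplp1 was at 15.82, 16.12 and 15.03 in AB males and 17.06, 16.72 and 16.48 in AB females, without overlap (-1.096, SE 0.32, adjusted p = 0.16). Its difference was -0.62 in TU and -0.11 in WIK. Its partners rplp2 and rplp2b differed by 0.46 and -0.46 in AB (adjusted p = 0.399 and 0.456). In the 5S particle, rpl11 differed between the sexes by -0.10, -0.27 and -0.02, rpl5a by -0.34 (adjusted p = 0.14), -0.40 and -0.12, and rpl5b by -0.12, -0.25 and 0.03. The S6 kinase substrate rps6 differed by -0.58 (SE 0.15, adjusted p = 0.132), -0.49 and -0.36, none of which passed, with no overlap in AB and TU. On their brightest probes, the sex differences of rpsa, whose protein is also known as a laminin receptor, rps27a and rps14 lay between -0.26 and 0.15 in all 3 strains. Another rpsa probe measured 14.83, 15.08 and 13.47 in AB males and 16.15, 16.08 and 15.97 in AB females, without being called. The gene rps19, the most frequently mutated in Diamond-Blackfan anaemia, differed by 0.37, 0.11 and 0.29 (adjusted p = 0.601, 0.971 and 0.652) with quantile normalization, and by -0.61, -1.27 and -0.97 with the 75th percentile scaling. The other differences by role are from quantile normalization, and under the 75th percentile scaling all 83 genes were below 0. Unless another probe is named, values by role are for the brightest probe of each gene, and other probes could differ.

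Within the paralog pairs, the copies rpl7l1 and rps27l ranged over 2.82 and 3.62 log2 units between the lowest and the highest fish, and rps8b over 3.17, while rpl7, rps27.1 and rps8a ranged over 0.67, 0.71 and 1.099. The pair rpl22 and rpl22l1 had sex differences of -0.08 and -0.43 in AB, -0.15 and -0.64 in TU and 0.08 and -0.42 in WIK.

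Fish scanned on different days were also compared. This contrast was chosen after the values had been seen, as the difference between the 6 fish scanned on the first day, all numbered 1, and the 12 scanned later, with group in the model. Scan day, slide and fish number cannot be told apart here. The first-day arrays lay on slides 1 and 2 and the later ones on slides 3 to 6. The fit took the arrays as independent and had no slide term. Its SE and p-values therefore do not measure the spread between slides or days, and the counts below rest on them. By this contrast, of 6 arrays against 12, 24 of 83 genes passed an adjusted p of 0.05 with no fold limit, 23 of them dimmer on the first day and 1 (rpl35a) brighter. Of all probes 2.03% passed, and of the 275 other probes with a mean log2 signal of at least 15, 67 (24.4%) did, so the share of 28.9% for the ribosomal protein genes was near that of other bright probes. Among the comparison lists described below it was 1.52% of mitochondrial ribosomal proteins, 4.11% of translation factors and 2.56% of biogenesis factors. In 20 genes the fish of the first day was the lowest in all 6 groups (24.1%), against 2.3% of all probes and 23.3% of the other bright probes, and in 4 it was the highest in all 6 (4.82%), against 1.28% and 2.18%.

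The largest shift was in rpl19, a large subunit protein that bridges to the small subunit. The 6 fish of the first day measured 13.60 (AB male), 13.95 (AB female), 13.16 (TU male), 14.08 (TU female), 13.39 (WIK male) and 13.90 (WIK female). The 12 others ran from 15.15 through a median of 16.02 to 16.42, so the sets were more than 1 log2 unit apart. The difference was -2.24 (SE 0.11, adjusted p = 7.4e-07, limma with Benjamini-Hochberg, arrays taken as independent). Also past 2-fold were rpl17 at -1.22 (SE 0.06), rpl34 at -1.04 (SE 0.05) and rps12 at -1.08 (SE 0.17), while 0.342% of all probes and 9.09% of the other bright probes passed both limits. For rpl17 the first-day fish ran from 16.12 to 16.64 and the others from 17.25 to 17.70. For rpl34 they ran from 15.47 to 16.00 and from 16.63 to 17.13. Different probes of 1 gene did not always move alike. A second rpl17 probe was at -1.096 (adjusted p = 3.0e-06) and the remaining one at 0.34 (adjusted p = 0.153). Of the 3 rps19 probes, 2 were at -0.60 and -0.73 and the other at 0.01 (adjusted p = 0.974). For rpl27a the main probe was at -0.59 (adjusted p = 0.0016) and the other at 0.45 (adjusted p = 0.0559). Each group of 3 held 1 fish of the first day, so the difference is part of every group's spread.

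Over all 58 genes with more than 1 probe, the 94 other probes correlated with the main probe at a median r of 0.48 over the 18 fish, with 21 at 0.8 or more and 20 below 0. The lowest were for rps4x (-0.72), rpl27a (-0.57), rpl17 (-0.54) and rpl10 (-0.43). None of the 94 was called between the sexes in any strain, while 2.08% of all probes were in AB, 0% in TU and 1.39% in WIK. Among strains 3 of the 94 were called in each sex, against 3.66% of all probes in males and 4.73% in females. The 2 other rpl36 probes described next were among the 3 in both sexes. The probes of rpl36, a large subunit protein, differed in pattern. The main probe measured between 16.48 and 16.90 in the first-day fish and between 17.36 and 17.76 in the others, in all groups. The second probe measured 11.29, 11.80 and 10.67 in AB males and 9.40, 10.53 and 10.84 in AB females, and 6.50 to 7.25 in all TU and WIK fish. The third ran alike, with 9.06 to 11.51 in AB and 6.01 to 6.76 elsewhere. These 2 probes were assigned to rpl36 only through the study's own lists of differing probes, so their strain difference is no independent evidence of its direction, and the main probe, named by its RefSeq accession, differed by 0.24 between TU and WIK males and by less in the other contrasts.

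**Figure D4:**
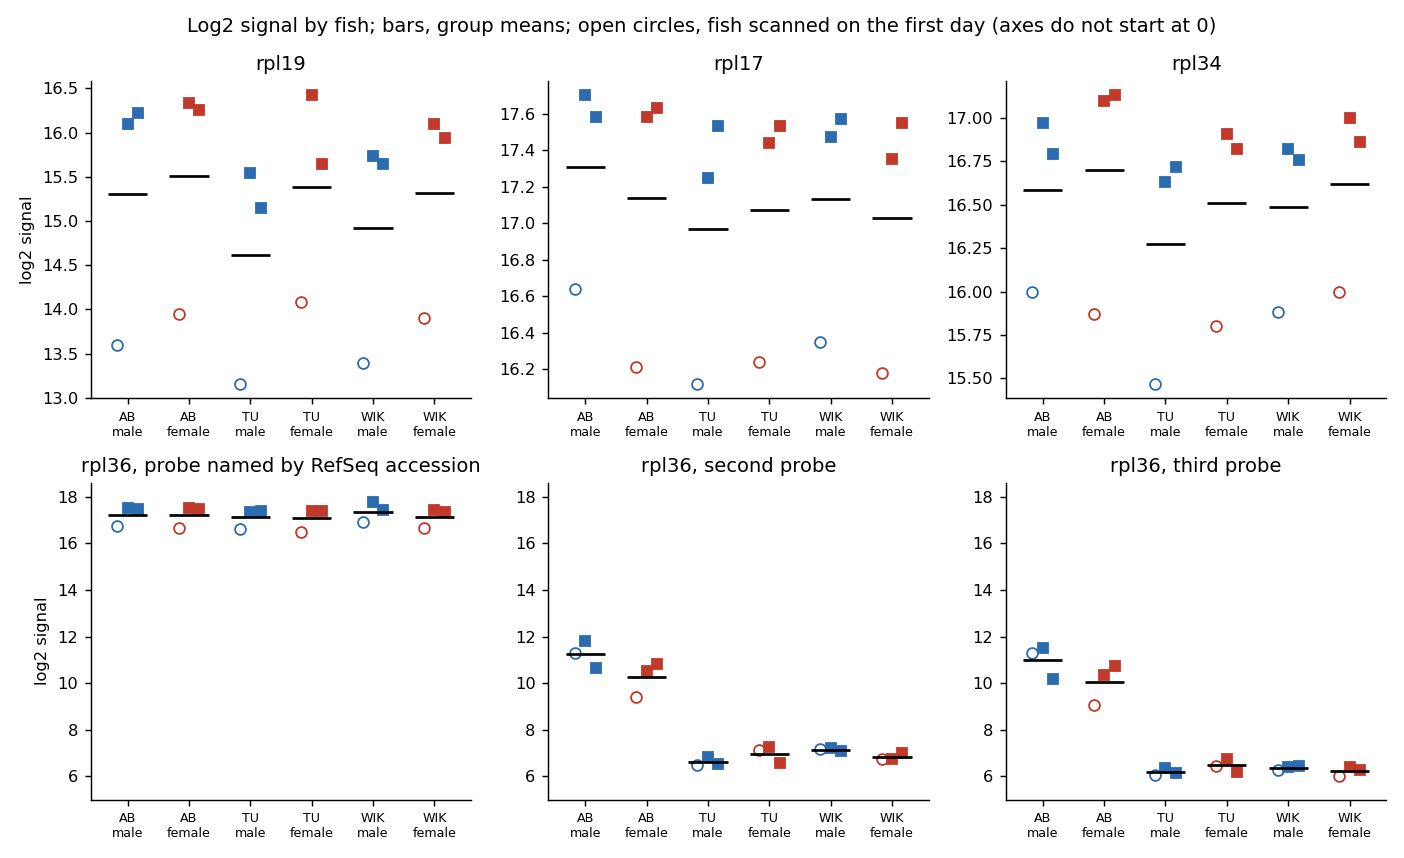
Log2 signal by fish of rpl19, rpl17 and rpl34 (top) and of the 3 probes assigned to rpl36 (bottom), with males blue, females red, fish scanned on the first day as open circles, and bars at group means, on axes that do not start at 0. The first-day fish are lowest in all 6 groups for the top genes, and the other 2 rpl36 probes lie between 9.06 and 11.80 in AB and reach at most 7.25 in TU and WIK.

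Genes that work with the ribosome were set beside its proteins. Ribosome biogenesis factors, which process ribosomal RNA and assemble the subunits, had 75 of 78 measured genes below 0 (male minus female) in AB, with a median of -1.09, and 6 were called, where 50.3% of all probes were below 0 and 2.08% were called. Lower in AB males were ddx21, a nucleolar helicase (-2.55, SE 0.29, adjusted p = 0.02), bop1 (-1.63, adjusted p = 0.0339), noc4l (-1.71, adjusted p = 0.0384), noc2l and tsr3, and ubtfl was higher. In TU 75 of 78 were below 0 (median -0.63) and in WIK 53 (median -0.24), where 53.2% and 46.8% of all probes were, with none called in either. Translation factors had medians of -0.65, -0.37 and -0.15, with eef1db (-1.48) and pabpc1b (2.51) called in AB. Mitochondrial ribosomal proteins, a separate set that builds the ribosome of the mitochondrion, had medians of -0.40, -0.06 and -0.04. Of these mrpl30 was called in AB (-1.33) and mrpl20 in WIK (-1.78). Of 21 genes of the mTORC1, Myc and p53 pathways, the Myc genes mycb (-4.90) and mych (-3.21) were called in AB and eif4ebp3l (2.37), a translation repressor, in WIK. TU female 3 also stood apart here, with biogenesis factors at -0.83 relative to all fish. Among female strains, where 4.73% of all probes were called, 13 of 66 mitochondrial ribosomal proteins, 5 of 78 biogenesis factors and 0 of 83 cytosolic ones were. Of the biogenesis factors, npm1a, the nucleolar histone chaperone, was higher in AB by 1.79 over TU and 2.56 over WIK (adjusted p = 0.0177). These values come from quantile normalization, the other scalings were not run for these lists, and no difference between lists was tested.

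**Figure D5:**
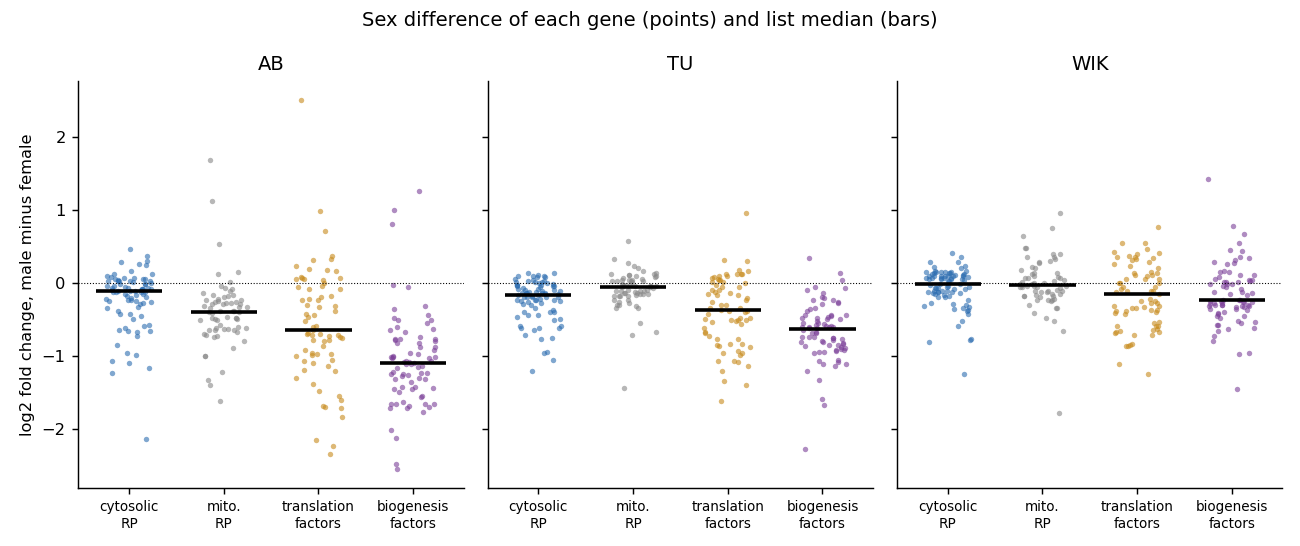
Sex difference (log2, male minus female, quantile normalization) of each gene in 4 lists, 1 point per gene, with bars at list medians, in AB, TU and WIK. The biogenesis factors lie lowest in AB, at a median of -1.09, and the cytosolic ribosomal proteins lie at -0.12, -0.16 and -0.01. The sign of the latter in WIK turned under median scaling relative to all probes and without single fish. Their medians were -1.11, -1.51 and -1.22 with the 75th percentile scaling, which was not run for the other lists.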

How the data were processed

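Total liver RNA of 18 zebrafish was labelled with 1 dye (Cy3) by the study and hybridised to Agilent arrays of 45220 spots. The deposited scanner files hold spot and background intensity values that are not normalized, and a deposited table holds log2 values per accession, which the authors made with limma (version not given in the sources used here) by background subtraction, normalization across arrays and averaging of duplicate probes. After 1417 control spots were left out and repeat spots of a probe were averaged here, each array gave 43603 probes.

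Here the median spot intensity was corrected with normexp (offset 50), quantile normalized and then put on the log2 scale (limma 3.58.1, R 4.3.3). Quantile normalization keeps the order of probes within an array and gives all arrays 1 distribution. Spots flagged by the scanner software as outliers were then left out. Accessions were matched to the RefSeq gene table (26043 probes) or the study's lists (272), so 60.4% of probes had a gene name, 13576 genes in all. Strains were compared within sex and sexes within strain by lmFit and eBayes, with Benjamini-Hochberg adjustment over all probes. Calls needed a change of 2-fold or more with an adjusted p no higher than 0.05, and for the difference of sex differences the adjusted p alone. The scripts were tested on simulated data.

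The members, comparison lists and tests were chosen with earlier results of these data known. Genes named in the text were those called, the 3 with the smallest p in each comparison where fewer than 3 were called, members by role, paralog pairs, rpl36 and genes whose probes disagree. The genes rpl3l, rps19bp1 and rps11b were not found by the rule. The values of 1 member are not reported here by name, and it is counted in the totals. The scan-day contrast and genes named in it were chosen after the values were seen.

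Fish numbers tie a male and a female of a strain to 1 slide. Over all probes, the correlation of same-numbered fish, as deviations from group means, was 0.25, 0.01 and -0.07 in AB, 0.09, -0.02 and 0.37 in TU and 0.20, 0.13 and 0.12 in WIK. Only in WIK was every same-numbered pair above the pairs of that male with the other females. The main fits of all strains, WIK among them, left the pairing out. It entered through the replicate block, which was run for all strains as an alternative. Median spot signal was 36 to 70.5 against a background of 22 to 32, and 44.9% to 67.3% of probes were well above background. The number of arrays limits the precision. Alternatives covered scaling, the deposited table, a filter on dim probes, the fold limit, 1 fit of all arrays, the mean of a gene's probes, slide, scan day, the replicate block and leaving out each fish.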

Additional observations from a re-analysis of the deposited data

Results flagged for a closer look

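The following 6 signals lay outside the 83 main probes, in other probes of the same genes that were called among strains. Of all probes, 3.66% were called among strains in males and 4.73% in females. All are differences of log2 signal. For rpl36, probe A_15_P103658 was higher in AB than TU males by 4.79 and in AB than WIK females by 3.83, and probe A_15_P629221 by 4.64 and 3.42. Both were named only through the study's lists of differing probes, and the first was well above background on 14 of 18 arrays, among them 2 of 3 in TU males and 1 of 3 in WIK females. Its differences ran over all settings from 4.53 to 8.05 in males and from 2.75 to 6.29 in females, highest in both with the 75th percentile scaling. For rps2, a small subunit protein, 1 other probe differed by -1.01 between AB males (16.24, 16.53 and 15.81) and WIK males (17.08, 17.39 and 17.14), without overlap. For rpl31, a large subunit protein at the exit tunnel, 1 other probe differed by -1.20 between AB females (6.97, 7.003 and 7.27) and WIK females (8.31, 8.22 and 8.32), also without overlap. The main probe of rps2 and that of rpl31 were not called. Groups of 3 fish are too small for the extreme-value test, which needs 4.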

How the results depend on the processing

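The count of 1 gene called between the sexes in AB (rpl7l1) became 2 with no fold limit (rps23 added), and 0 with median scaling, with the deposited log2 table, with the replicate block, and with the 12 later-scanned arrays alone, which was chosen after seeing the data. Leaving out each AB fish gave 0 to 1: 0 without AB male 1, AB male 3, AB female 1 or AB female 2, rps23 in place of rpl7l1 without AB male 2, and rpl7l1 without AB female 3. It stayed 1, rpl7l1, under the other alternatives run. The counts for TU, WIK and the difference of sex differences were 0 in every setting run. Among strains, the count of 0 became 1 in females (rps27l) with the filter on dim probes, with 1 fit of all 18 arrays, with the slide as a random block, with scan day as a fixed block and with the replicate block, and it ranged from 0 to 1 when each fish was left out (1 without AB female 3 or TU female 3). With the mean of all probes of a gene it became 1 in both sexes (rpl36, which then includes the 2 probes named from the study's lists). In males leaving out each fish gave 0. No called value changed sign. The replicate block changed no WIK call. Scan day within a strain is the same as the fish number, so a separate block could not be fitted there. All 83 main probes were well above background on all 18 arrays.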
